A study of Mus musculus with 18 samples.

Results

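Erdr1 and Mid1 lie close together at the distal end of the mouse X chromosome, and their signals were followed over 18 whole-brain expression arrays. Every probe set whose platform gene symbol is Erdr1 or Mid1 was used, which gave 5 of the 45101 probe sets on the array, 2 for Erdr1 and 3 for Mid1, out of 18193 genes with a named probe set. A probe set is a group of short probes that together give 1 signal for a transcript. Both genes were taken up because their signals in ERalphaKO brains stood far above wild type in these same arrays. Their ERalphaKO values are therefore a description and carry no test.

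The brains came from 8-week-old C57BL/6 mice labelled ERalphaKO (estrogen receptor alpha, gene Esr1), ERbetaKO (estrogen receptor beta, gene Esr2) or wild type, and each genotype had 3 female and 3 male samples. The labels give neither the alleles nor the breeding of the knockouts, and they name no separate animals. Each p-value therefore rests on the spread between such samples, which may be technical. The deposited values are MAS5 signals, linear intensities that the authors scaled so that the 2% trimmed mean of each array was 500. Log2 values below are log2(signal + 63.63), which understates the change of dim probe sets.

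Mid1 encodes a microtubule-associated E3 ubiquitin ligase of the tripartite motif (TRIM) family. Its protein binds alpha4, the product of Igbp1, and through it marks the catalytic subunit of protein phosphatase 2A (PP2A) for degradation, a step that bears on mTOR signalling, and loss of human MID1 causes X-linked Opitz G/BBB syndrome, a disorder of midline development. Erdr1 was described as an erythroid differentiation regulator, a stress-responsive secreted factor reported to be lowered by interleukin 18. In the mouse the Mid1 gene runs across the boundary of the pseudoautosomal region, the stretch that X and Y share and exchange in male meiosis, and Erdr1 lies within that stretch. RefSeq lists Erdr1 as a transcribed pseudogene on X and lists a Mid1 pseudogene, Mid1-ps1, on Y.

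The RefSeq table of GRCm38.p6 held promoter windows for 3 starts of Mid1, each reaching from 250 bases before to 50 bases after the start. Because the knockouts are named for estrogen receptors, the windows were searched on both strands for the palindromic estrogen response element, which is GGTCA, any 3 bases and then TGACC, and for each arm, GGTCA or TGACC, alone. No Mid1 window held the whole element, which occurred in 0.07% of 32851 promoter windows of this length. The first window held 2 single arms, against 0 in the windows of the other two starts. At least 1 arm occurred in 40.5% of all windows and 2 or more in 10.8%. The first window is printed because it alone of the 3 held an arm, with the arms in capitals. It lies at chrX:169684949-169685248 on the plus strand and reads 5′ to 3′.
Mid1 start 1: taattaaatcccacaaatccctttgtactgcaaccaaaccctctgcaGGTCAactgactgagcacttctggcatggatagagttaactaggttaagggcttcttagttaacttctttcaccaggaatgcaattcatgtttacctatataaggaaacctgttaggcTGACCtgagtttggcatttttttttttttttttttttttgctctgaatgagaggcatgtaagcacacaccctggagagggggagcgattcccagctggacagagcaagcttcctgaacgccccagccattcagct
Such a match describes the letters only.

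The labelled sexes fitted Xist, the RNA that silences an X chromosome in females, at 4647 ± 432 in the 9 female arrays and 336 ± 84.4 in the 9 male arrays (SD). The targeted genes did not check the genotypes. The 3 Esr1 probe sets averaged 65.0 to 230 in ERalphaKO and 38.6 to 143 in wild type brains. The single Esr2 probe set averaged 271 ± 98.0 in ERbetaKO, against 28.7 ± 11.4 in wild type brains (SD, n = 6 each), so it goes against a loss of signal in the arrays labelled ERbetaKO. The positions of these probes relative to any deleted sequence are not given in the sources used here, and genotypes below are those of the labels. The GEO descriptions of the 6 ERalphaKO samples share a date tag that the other 12 lack, so whatever that tag stands for and the genotype cannot be told apart. Summed signals of 9 cerebellar markers spanned 10005 to 55852 in ERalphaKO, 9285 to 79111 in ERbetaKO and 10788 to 86011 in wild type arrays. Their medians were 34955, 13824 and 35848. The median log2 difference of the 9 markers from wild type was 0.09 in ERalphaKO and -0.99 in ERbetaKO. One of them, Pcp2, ran from 117 in wild type female 3 to 10790 in wild type male 2, so cerebellar signal was uneven between samples.

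Erdr1 was brightest on the probe set 1452406_x_at, whose suffix marks probes that can match other sequences as well. Its signals in ERalphaKO brains were 8223, 3588 and 5713 in females 1 to 3 and 4230, 5608 and 5093 in males 1 to 3. In ERbetaKO brains they were 623, 384 and 342 in females and 487, 534 and 702 in males. In wild type brains they were 414, 361 and 269 in females and 376, 294 and 266 in males. The 6 ERalphaKO arrays all lay above the other 12, the lowest of them at 3588 against a highest of 702 elsewhere, a separation that 0.595% of all probe sets had. ERbetaKO and wild type arrays overlapped, and 4 of the 6 ERbetaKO arrays exceeded the highest wild type array.

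The Erdr1 signal averaged 5409 ± 1604 in ERalphaKO, 512 ± 138 in ERbetaKO and 330 ± 62.1 in wild type brains (SD, n = 6 each). On the log2 scale ERalphaKO exceeded wild type by 3.76 ± 0.18 (SE), a 13.6-fold difference, and exceeded ERbetaKO by 3.24 ± 0.18. The first difference was the highest of the 27022 probe sets whose mean level over all arrays passed the filter, a log2 level of 7.58 or more. It was 3.78 ± 0.25 in females and 3.75 ± 0.25 in males. In whole-brain RNA, more or fewer cells of a type and more or less RNA per cell cannot be told apart.

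The other Erdr1 probe set, 1447790_at, was dim and did not pass the filter. Its signals were 218, 245 and 302 in ERalphaKO females and 194, 248 and 154 in ERalphaKO males. They spanned 51.7 to 188 with a median of 61.0 in ERbetaKO and 21.2 to 116 with a median of 67.4 in wild type brains. The ERalphaKO arrays all lay above wild type, but ERbetaKO male 3, at 188, exceeded ERalphaKO male 3, at 154. The log2 difference from wild type was 1.13 ± 0.19 in ERalphaKO brains, the 48th highest of all 45037 probe sets that are not controls. It was 1.82 with a pseudocount of 1 and 0.67 with the pseudocount at the median signal.

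Mid1 was brightest on the probe set 1438239_at. Its signals in ERalphaKO brains were 1644, 669 and 1096 in females 1 to 3 and 169, 802 and 896 in males 1 to 3. In ERbetaKO brains they were 185, 142 and 123 in females and 154, 153 and 108 in males. In wild type brains they were 118, 111 and 109 in females and 96.5, 124 and 103 in males. All 6 ERalphaKO arrays lay above all wild type arrays. Male 1 stood far below the other 5 ERalphaKO arrays and within reach of ERbetaKO female 1, which at 185 exceeded it.

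The Mid1 signal averaged 879 ± 487 in ERalphaKO, 144 ± 26.8 in ERbetaKO and 110 ± 9.78 in wild type brains (SD, n = 6 each). On the log2 scale ERalphaKO exceeded wild type by 2.22 ± 0.27 (SE), a 4.65-fold difference, and without male 1 the value was 2.55. ERalphaKO exceeded ERbetaKO by 1.97 ± 0.27. The difference from wild type was the fourth highest of the 27022 probe sets. Both wild type groups lay under the filter level. This probe set passed the filter on the mean over all arrays only through ERalphaKO, and over the ERbetaKO and wild type arrays alone it did not pass.

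The other 2 Mid1 probe sets, 1422055_at and 1443666_at, were dim and did not pass the filter. The signal of 1422055_at spanned 20.3 to 98.2 in ERalphaKO, 19.5 to 90.7 in ERbetaKO and 37.6 to 134 in wild type brains. That of 1443666_at spanned 8.39 to 91.7 in ERalphaKO, 8.60 to 98.8 in ERbetaKO and 6.31 to 37.0 in wild type brains. The groups overlapped on both. Their log2 differences between ERalphaKO and wild type were -0.26 ± 0.17 and 0.44 ± 0.20, on a scale that compresses such dim signals. With a pseudocount of 1 the value of 1443666_at was 1.32 ± 0.60. Of the 5 probe sets, 3 had every ERalphaKO array above every wild type array, which held for 2.42% of all probe sets, and nothing is read from this count because the choice of genes used these values.

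**Figure D1:**
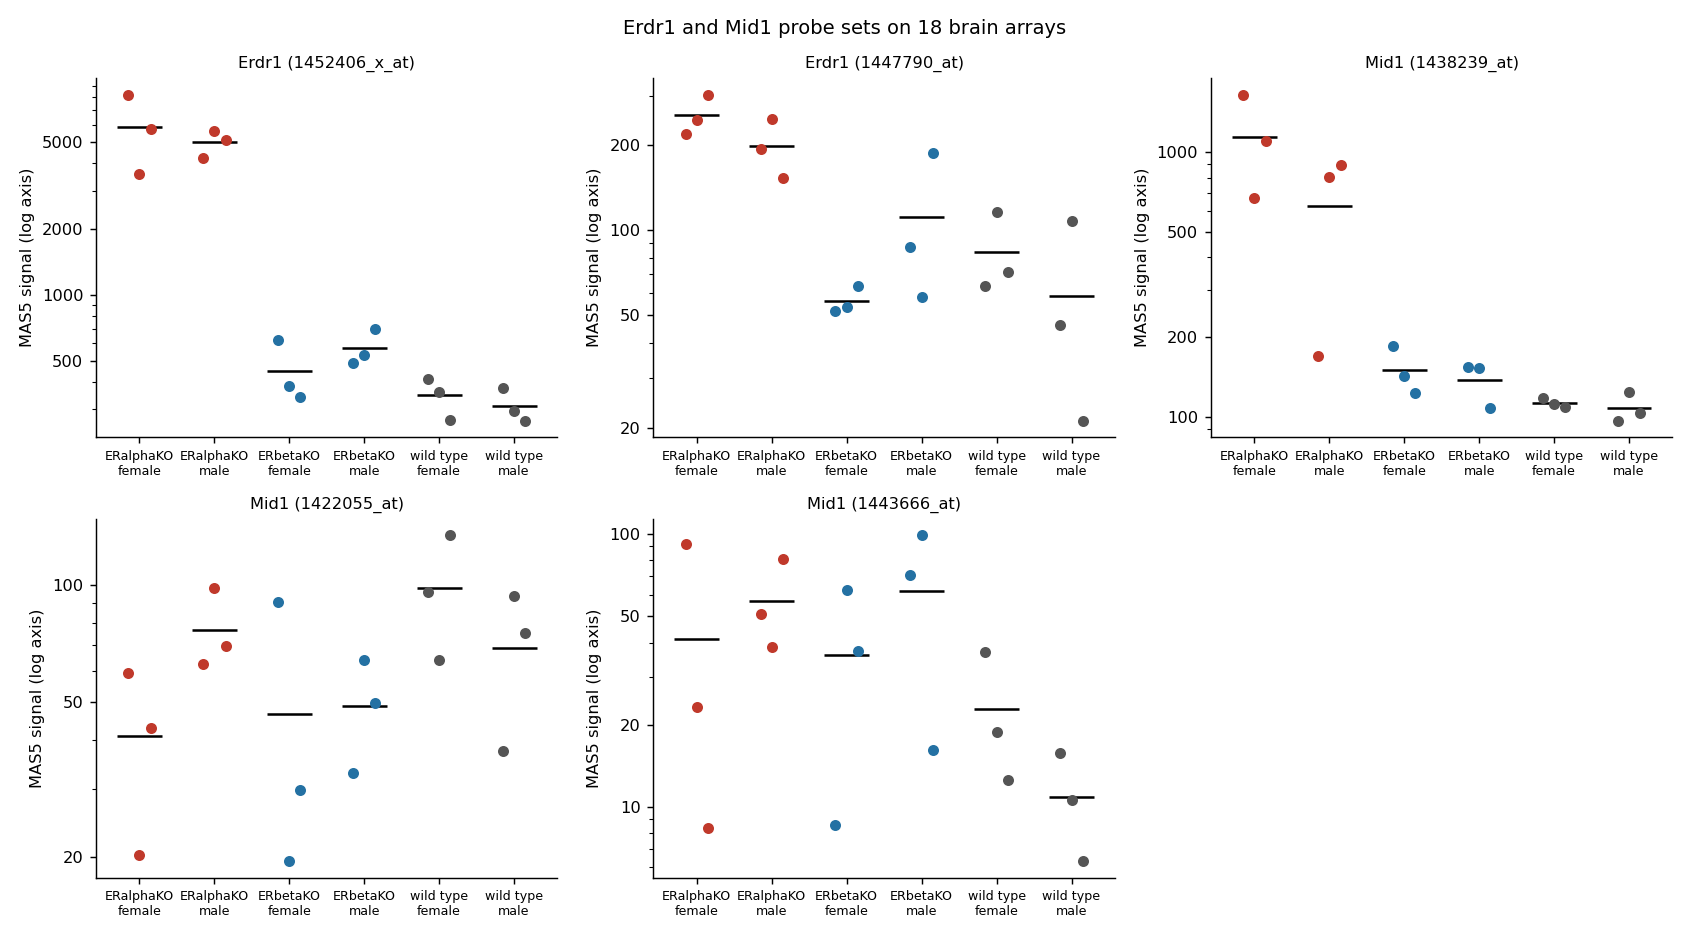
MAS5 signal (log axis) of the 2 Erdr1 and 3 Mid1 probe sets on each of 18 arrays, with points for arrays and a bar for the mean of the 3 arrays in each group, ordered ERalphaKO, ERbetaKO and wild type. The 6 ERalphaKO points lie above all others for Erdr1 1452406_x_at, and for Mid1 1438239_at 5 of the 6 do, with male 1 at 169.

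The order of levels on both bright probe sets was ERalphaKO, ERbetaKO and wild type, and the step between ERbetaKO and wild type was the one the choice of genes had not used, although it shares the wild type arrays. Erdr1 1452406_x_at differed by 0.53 ± 0.18 on the log2 scale (SE; 95% interval 0.15 to 0.90; limma adjusted p = 0.0761). The difference was 0.30 ± 0.25 in females and 0.76 ± 0.25 in males. Mid1 1438239_at differed by 0.25 ± 0.27 (interval -0.33 to 0.83; adjusted p = 0.604, or 0.665 in the fit without the filter, which it passed only through ERalphaKO). Neither step passed the threshold of 0.05. Among the dim probe sets the differences were 0.11 ± 0.19 for Erdr1 1447790_at (adjusted p = 0.786), -0.40 ± 0.17 for Mid1 1422055_at (adjusted p = 0.195) and 0.44 ± 0.20 for Mid1 1443666_at (adjusted p = 0.232).

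In ERbetaKO against wild type, 0 of the 5 probe sets therefore passed, while 7.82% of the 27022 tested probe sets did, of which the higher made up 4.23% and the lower 3.59% of those tested (3.59% of all 45037 in the fit without the filter). In the limma fit 3 had an unadjusted p under 0.05, namely Erdr1 1452406_x_at, higher in ERbetaKO, Mid1 1443666_at, also higher, and Mid1 1422055_at, lower. Of the 27022 tested probe sets 7060 did so, and no result about Erdr1 or Mid1 is read from this count. The call on Erdr1 1452406_x_at was close to the threshold. With a cerebellar marker score as a covariate the difference was 0.63 with an adjusted p of 0.0142, and with ERalphaKO female 2 left out the adjusted p was 0.0428. In 26 of 29 alternative fits it did not pass, and the limma adjusted p ran up to 0.183.

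**Figure D2:**
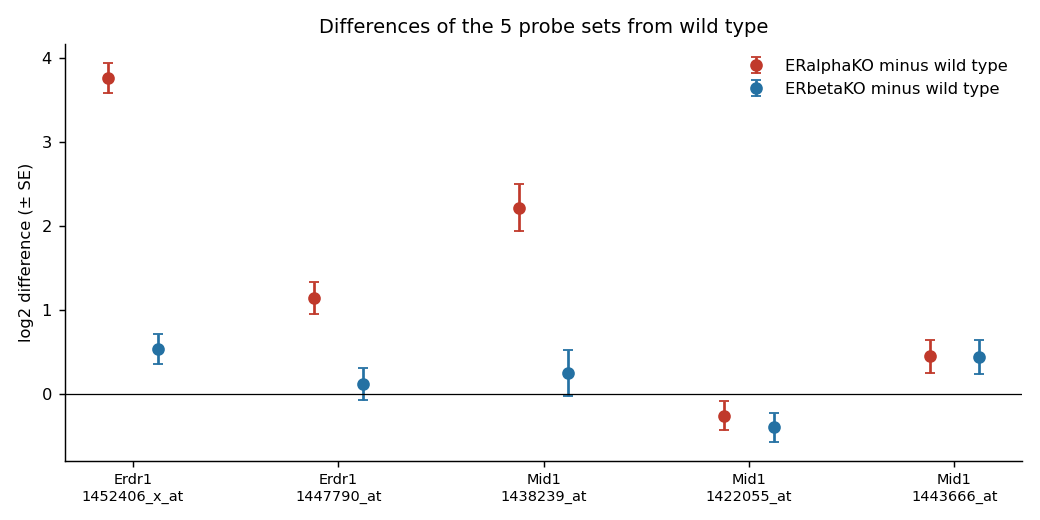
Log2 difference from wild type (± SE) of the 5 probe sets in ERalphaKO and in ERbetaKO brains. Erdr1 1452406_x_at stands at 3.76 in ERalphaKO and 0.53 in ERbetaKO, and Mid1 1438239_at at 2.22 and 0.25.

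Both genes sit where X and Y pair, so their sex difference was tested over the 3 genotypes. Erdr1 1452406_x_at differed between females and males by -0.02 ± 0.15 on the log2 scale (95% interval -0.33 to 0.29; limma adjusted p = 0.999). Mid1 1438239_at was at 466 ± 559 in females and 289 ± 319 in males (SD, n = 9 each), a log2 difference of 0.36 ± 0.22 (interval -0.11 to 0.84; adjusted p = 0.958). Here 0 of the 5 Erdr1 and Mid1 probe sets passed, all with an unadjusted p above 0.05 in the limma fit (1340 of the 27022 tested probe sets were under it), beside 0.037% of the tested probe sets (0.0333% without the filter).

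Whether the ERalphaKO difference was larger in one sex was tested as an interaction. For Erdr1 1452406_x_at the female minus male value was 0.03 ± 0.36 (interval -0.72 to 0.79; limma adjusted p = 0.997). For Mid1 1438239_at the ERalphaKO difference was 2.68 ± 0.39 in females and 1.76 ± 0.39 in males, and the female minus male value was 0.93 ± 0.55 (interval -0.23 to 2.09; adjusted p = 0.922). Leaving out ERalphaKO male 1 brought it to 0.27, so its size rested on that array. In this comparison 0 of the 5 passed, as did 0% of the tested probe sets, of which 1547 had an unadjusted p under 0.05. Mid1 1422055_at alone of the 5 did so (-0.73 ± 0.34, limma adjusted p = 0.802). Within ERalphaKO brains Mid1 1438239_at was at 1136 ± 489 in females and 622 ± 395 in males (SD, n = 3 each), a log2 difference of 0.97 ± 0.39 (limma adjusted p = 0.629). Without male 1 the Mid1 difference between the sexes over all genotypes was 0.15.

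Within ERalphaKO brains the 2 bright probe sets varied more than most. The log2 SD over the 6 arrays was 0.41 for Erdr1 and 0.98 for Mid1, which put them at percentiles 93.7 and 99.7 of the tested probe sets, whose median was 0.17. The Mid1 SD includes male 1, at a log2 level of 7.86 against 9.52 to 10.74 in the other ERalphaKO arrays. Mid1 is among the tested probe sets only through ERalphaKO. In ERbetaKO brains the SD was 0.35 for Erdr1 and 0.19 for Mid1. In wild type brains it was 0.23 for Erdr1 and 0.08 for Mid1, at percentile 5.16, where Mid1 was also dim.

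Array by array, Erdr1 1452406_x_at and Mid1 1438239_at stood in nearly the same order in ERalphaKO brains. Female 1 was highest on both, at log2 levels of 13.02 and 10.74, and female 3 was second on both, at 12.50 and 10.18. Female 2 and male 1 held the lowest places, female 2 at 11.83 and 9.52 and male 1 at 12.07 and 7.86. The correlation over the 6 arrays was 0.70 (Pearson, two-sided exact permutation p = 0.126) and the rank correlation 0.89 (Spearman, exact permutation p = 0.0333). Adjusted over the 30 correlations of this kind, the values were 0.681 and 0.5, so neither passed.

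The correlation depended on single arrays. Without the 2 arrays farthest from the median Erdr1 level, females 1 and 2, it was 0.94. Leaving out 1 array at a time gave 0.53 without female 1 and 0.93 without male 1, where the exact permutation p was 0.0417. On deviations from the mean of each sex it was 0.71. Male 1, the array with the low Mid1 signal, also had the highest summed signal of 8 blood and erythroid markers. The sum was 2568, against 1284 to 1605 in the other ERalphaKO arrays. Much of it came from Alas2, which reached 1370 on this array against a mean of 255 over all arrays. The part of this in the Mid1 value of male 1 was not tested.

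The same pair of probe sets correlated at 0.09 in ERbetaKO (exact permutation p = 0.857) and at 0.01 in wild type brains (p = 0.974, exact permutation). In ERbetaKO brains male 3 had the highest Erdr1 signal, 702, and the lowest Mid1 signal, 108. The 2 Erdr1 probe sets correlated at 0.09 with each other in ERalphaKO brains (exact permutation p = 0.888). Pairs of Erdr1 and Mid1 that held a dim probe set correlated there at 0.45, 0.44, 0.26, -0.33 and -0.80. The last was that of the dim 1447790_at and 1443666_at (exact permutation p = 0.0528). The smallest p of all 30 was that of Erdr1 1452406_x_at with the dim Mid1 1443666_at in wild type brains (r = 0.86, exact permutation p = 0.00972, adjusted 0.292). None of the 30 passed after adjustment.

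**Figure D3:**
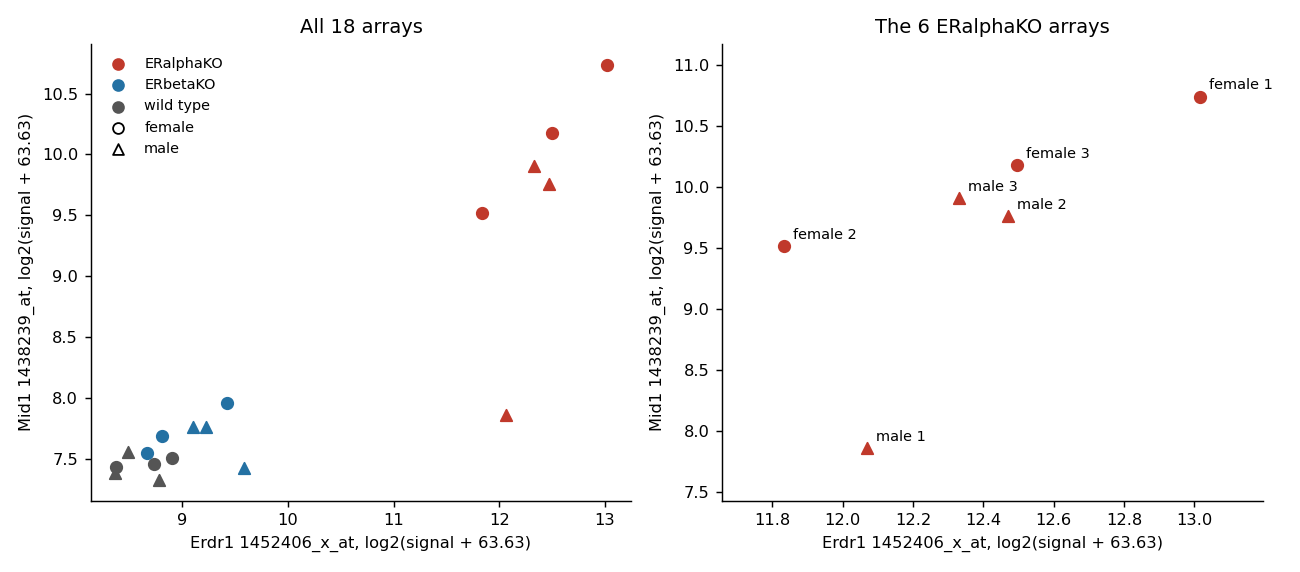
Log2 signal of Mid1 1438239_at against that of Erdr1 1452406_x_at, for all 18 arrays (left) and for the 6 ERalphaKO arrays alone (right), with circles for females and triangles for males. The ERalphaKO arrays lie apart at Erdr1 levels of 11.83 or more, and male 1, at a Mid1 level of 7.86, lies below the other 5.

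Over all 18 arrays, each of the 2 genes was the nearest to the other in pattern among the 13071 other genes whose brightest probe set passed the filter (Pearson r = 0.91 of log2 levels). Genotype levels enter this likeness, so it is given with no test. The filter shaped this ranking too, as Mid1 passed it only through ERalphaKO. Left out of it were the noncoding RNA G530011O06Rik, under the filter, and the probe set 1439200_x_at, which has no gene name. Their correlations with Erdr1 were 0.95 and 0.98, above that of Mid1. Next nearest to Erdr1 were Ncbp2, which encodes a subunit of the cap-binding complex (0.91), the splicing regulator Tra2a (0.91), the kinase gene Clk4 (0.89), Hnrnph2 (0.89) and Snrpc, which encodes a U1 snRNP protein (0.88). Their ERalphaKO means lay far less above wild type than that of Erdr1, Tra2a for instance averaging 1368 ± 136 in ERalphaKO, 922 ± 57.2 in ERbetaKO and 885 ± 69.4 in wild type brains. The genes most opposite to Erdr1 were Nnt (-0.95), Nlrx1 (-0.89), P2ry13 (-0.88) and Efcab7 (-0.88). Nnt, a mitochondrial transhydrogenase gene, averaged 814 ± 77.1 in ERalphaKO, 1317 ± 108 in ERbetaKO and 1423 ± 90.8 in wild type brains.

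Nearest to Mid1 after Erdr1 were the transcription factor gene Sp3 (0.84), C030023E24Rik on the X chromosome (0.83), the translation initiation factor gene Eif3a (0.83), the kinase gene Clk1 (0.82) and Ncbp2 (0.82). C030023E24Rik averaged 226 ± 34.1 in ERalphaKO, 130 ± 24.6 in ERbetaKO and 87.1 ± 24.6 in wild type brains. Most opposite to Mid1 were Zcchc17 (-0.88), Fsd1 (-0.87), 2410006H16Rik (-0.85) and Mrpl11 (-0.84). On deviations from the 6 group means, which take out genotype levels but not differences in spread, the correlation of Erdr1 and Mid1 was 0.53. The log2 SD of Mid1 was 0.98 in ERalphaKO and 0.08 in wild type brains, so the ERalphaKO arrays weigh most in this value. The Mid1 deviation of ERalphaKO male 1 alone was -1.31. Mid1 then ranked 550th among the genes most like Erdr1, behind St6galnac3 (0.85), Ctdspl2 (0.81), Treml1 (0.81) and Dusp16 (0.80) at the top. Erdr1 ranked 134th among those most like Mid1, where Chpf (0.82), Stat3 (0.79), Usf2 (0.76) and Ufsp1 (0.74) came first.

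Neighbouring genes were examined in the RefSeq order of GRCm38.p6, in which Gm25651, 4933400A11Rik and G530011O06Rik lie between Mid1 and Erdr1. G530011O06Rik, a long noncoding RNA next to Erdr1, was measured by 1 probe set under the filter level. Its signals were 369, 145 and 204 in ERalphaKO females and 165, 187 and 232 in ERalphaKO males, against 11.4 to 36.6 in ERbetaKO and 9.58 to 79.6 in wild type brains. The 6 ERalphaKO arrays all lay above the other 12, and the log2 difference from wild type was 1.67 in ERalphaKO and 0.04 in ERbetaKO brains. Its correlation with Erdr1 was 0.95 over 18 arrays, 0.92 over the 6 ERalphaKO arrays and 0.66 on deviations from the 6 group means. This gene was picked by position after its values were seen, so these values carry no test. The probe set of 4933400A11Rik lay between 0.894 and 11.3 on all arrays.

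The probe set with the next highest ERalphaKO difference after Erdr1, 1439200_x_at, has no gene name in the platform annotation. Its signal averaged 1046 ± 254 in ERalphaKO, 79.8 ± 41.4 in ERbetaKO and 22.0 ± 17.0 in wild type brains (SD, n = 6 each), a log2 difference from wild type of 3.69. It correlated with Erdr1 1452406_x_at at 0.98 over 18 arrays and 0.88 over the 6 ERalphaKO arrays. On deviations from the 6 group means the correlation was 0.26. This probe set too was singled out after its values were seen.

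**Figure D4:**
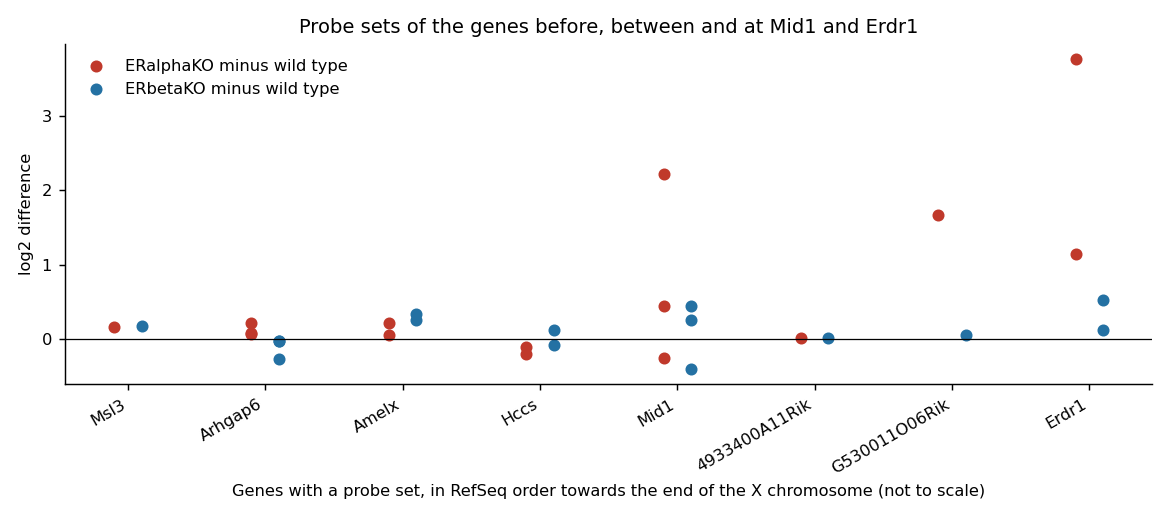
Log2 difference from wild type in ERalphaKO and in ERbetaKO brains for each probe set of the genes from Msl3 to Erdr1, in RefSeq order along X and not to scale. The values above 1 in ERalphaKO brains belong to Mid1 1438239_at, G530011O06Rik and the 2 Erdr1 probe sets, and in ERalphaKO brains the probe sets of Msl3, Arhgap6, Amelx and Hccs lie between -0.21 and 0.21. In ERbetaKO brains these lie between -0.28 and 0.34.

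Related genes were followed by list, each gene by its brightest probe set. Of 17 genes listed as pseudoautosomal or distal X neighbours, 12 had a probe set and 8 could be tested. These were Arhgap6, Hccs, Amelx, Msl3, Prps2, Tmsb4x, Rab9 and Trappc2, while Sts, Asmt, Nlgn4l and Akap17a were not tested. None of the 8 lies between Mid1 and the end of X in RefSeq order, so they do not cover the stretch around Erdr1. None of the 8 passed in ERalphaKO against wild type, where 9.07% of tested probe sets passed, 5.48% higher and 3.59% lower. The median log2 difference of the 8 was 0.05, against 0.00 over all tested probe sets. The brightest of them were Tmsb4x, which encodes thymosin beta 4, at 11008 ± 1491 in ERalphaKO and 12647 ± 1546 in wild type brains (-0.20 ± 0.10, limma adjusted p = 0.25, and 0.11 with quantile normalization), and the trafficking gene Trappc2, at 3220 ± 158 in ERalphaKO and 3101 ± 98.1 in wild type brains (0.05 ± 0.05, adjusted p = 0.567). None of the 8 passed between ERbetaKO and wild type, between females and males, or in the interaction. Of all tested probe sets 7.82%, 0.037% and 0% did.

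Of the 5 other TRIM genes of the same class as Mid1, none passed in any of the 4 comparisons. Over all tested probe sets 9.07% passed in ERalphaKO, 7.82% in ERbetaKO, 0.037% between the sexes and 0% in the interaction. With so few genes, nothing is read from this count. The ERalphaKO differences of the 5 ran between -0.13 and 0.18 with a median of 0.05. Trim9, a neuronal member, averaged 2177 ± 254 in ERalphaKO and 2094 ± 250 in wild type brains (0.05 ± 0.09, limma adjusted p = 0.749). Trim46, which is needed for axon polarity, averaged 1167 ± 198 in ERalphaKO and 1226 ± 132 in wild type brains (-0.08 ± 0.13, adjusted p = 0.757).

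Of 10 genes listed around the Mid1 ligase and PP2A, 1 was lower in ERalphaKO and 9 did not pass, with a median log2 difference of 0.00. That is near the 9.07% of all tested probe sets that passed. Ppp2r1a, the scaffold subunit of PP2A, fell to 9255 ± 1074 in ERalphaKO, against 11495 ± 1126 in wild type brains (-0.31 ± 0.09, limma adjusted p = 0.0435). The other 4 Ppp2r1a probe sets differed by -0.11 to -0.27 and did not pass, and with quantile normalization the value was -0.07 with an adjusted p of 0.255. In ERbetaKO against wild type none of the 10 passed, beside 7.82% of all tested probe sets.

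Of 12 tested mTOR pathway genes, 1 was higher in ERalphaKO and 11 did not pass, with a median of -0.03, beside 9.07% of all tested probe sets that passed. Tsc1, which encodes hamartin, an inhibitor of mTOR complex 1, rose to 929 ± 62.0 in ERalphaKO, against 743 ± 44.2 in wild type brains (0.30 ± 0.07, limma adjusted p = 0.0131). In ERbetaKO 2 of the 12 were lower, beside 7.82% of all tested probe sets that passed and 3.59% that were lower. Tsc2, the partner of Tsc1, fell to 1252 ± 50.1 in ERbetaKO, against 1535 ± 132 in wild type brains (-0.28 ± 0.08, adjusted p = 0.0453). Eif4ebp2, a translation repressor gene, fell to 595 ± 130 in ERbetaKO, against 778 ± 80.7 in wild type brains (-0.37 ± 0.11, limma adjusted p = 0.0455). Of 3 further Eif4ebp2 probe sets, 1 also passed (-0.39) and 2 did not, at 0.07 and 0.24. Both calls lay close to the threshold and were lost in several other fits, among them the fit with the Actb ratio as a covariate, a ratio that was higher in all ERbetaKO than in all wild type arrays (adjusted p = 0.277 for Tsc2 and 0.369 for Eif4ebp2 in limma).

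Of 7 tested hedgehog and Gli genes, a pathway whose Gli factors have been tied to Mid1, none passed in any of the 4 comparisons. The shares over all tested probe sets were 9.07% in ERalphaKO, 7.82% in ERbetaKO, 0.037% between the sexes and 0% in the interaction, and nothing is read from this count. The ERalphaKO median was -0.15. Shh, the secreted ligand, averaged 1003 ± 193 in ERalphaKO and 1307 ± 186 in wild type brains (-0.37 ± 0.15, limma adjusted p = 0.136), and Ptch1, its receptor, averaged 1877 ± 527 in ERalphaKO and 1863 ± 374 in wild type brains (-0.01 ± 0.18, adjusted p = 0.978).

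Of 4 tested interleukin 18 signalling genes, none passed in ERalphaKO, with a median of -0.25, beside 9.07% of all tested probe sets. In ERbetaKO 1 of the 4 was lower, beside the same 3.59%. Irak1, a kinase downstream of the interleukin 18 receptor, fell to 368 ± 53.1 in ERbetaKO, against 646 ± 68.9 in wild type brains (-0.72 ± 0.10, limma adjusted p = 0.000895). Its other 3 tested probe sets did not pass, at -0.16, 0.13 and 0.14. Of 10 genes that escape X inactivation, 1 was higher in ERalphaKO, 1 was higher in females and the others passed in no comparison, beside 9.07% and 0.037% of all tested probe sets that passed in these 2 comparisons. Ftx, a noncoding RNA gene next to Xist, rose to 720.5 ± 66.8 in ERalphaKO, against 434 ± 66.8 in wild type brains (0.66 ± 0.11, limma adjusted p = 0.00172). Eif2s3x, a translation factor gene, was higher in females, at 4825 ± 309 against 3840 ± 259 in males (SD, n = 9 each; 0.32 ± 0.05, limma adjusted p = 0.00963).

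**Figure D5:**
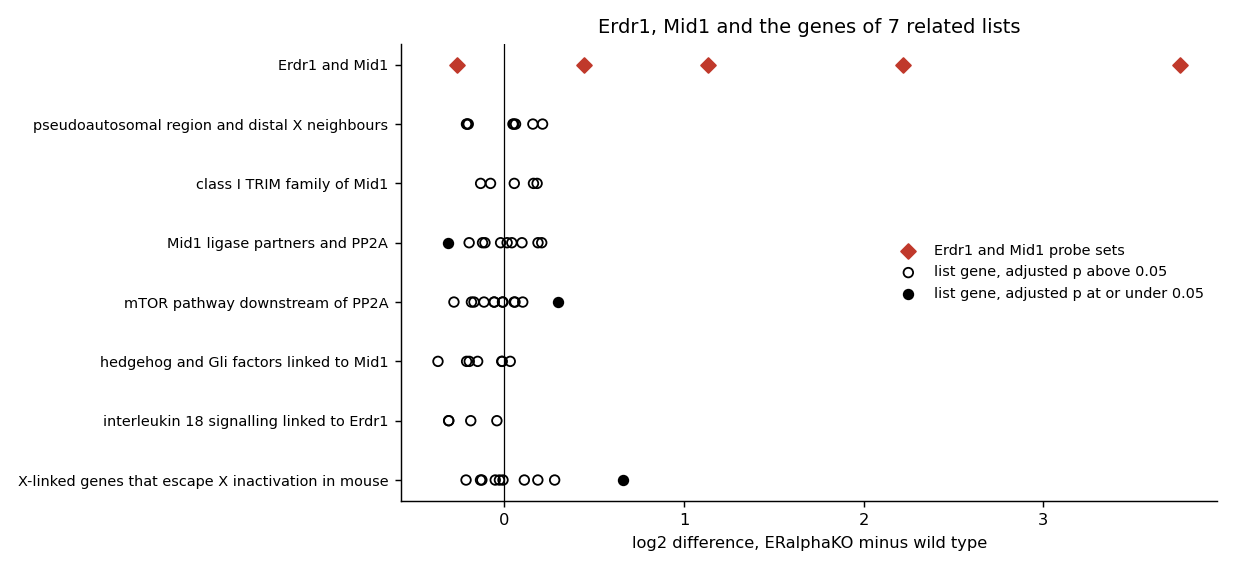
Log2 difference between ERalphaKO and wild type brains for the 5 Erdr1 and Mid1 probe sets (diamonds) and for the tested genes of 7 related lists (circles, filled where the adjusted p was 0.05 or less). All list genes lie between -0.37 and 0.66, and the bright Erdr1 and Mid1 probe sets at 3.76 and 2.22.

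Markers of other cell types were set beside these values. Summed signals of 8 blood and erythroid markers ran between 1284 and 2568 in ERalphaKO, 1062 and 1873 in ERbetaKO and 1320 and 1743 in wild type brains. Of these markers 4 could be tested and 0 passed in ERalphaKO, beside 9.07% of all tested probe sets. No marker of this list was at 0, and the highest mean was that of Epor, at 544. Of the pituitary, cerebellar, oligodendrocyte and choroid plexus markers none passed in ERalphaKO, while 2 of 8 neuronal, 1 of 7 astrocyte and 1 of 7 microglial markers were lower, beside 3.59% of all tested probe sets. Summed astrocyte markers ran between 34544 and 42900 in ERalphaKO, 33410 and 48592 in ERbetaKO and 43301 and 49796 in wild type brains. Summed neuronal markers ran between 48755 and 65922 in ERalphaKO and 62692 and 80619 in wild type brains. Only the astrocyte sums did not overlap between ERalphaKO and wild type brains. Nothing is read from this, because the share of all probe sets wholly lower in ERalphaKO was not computed. The astrocyte sums also rest largely on bright probe sets such as that of Aldoc, with a mean of 12917, and were not recomputed with quantile normalization. The ratio of the Actb control probe sets at the 3′ and 5′ ends, a sign of RNA integrity, was 1.15 to 1.37 in ERalphaKO, 1.34 to 1.84 in ERbetaKO and 1.17 to 1.23 in wild type arrays. The part of these in the Erdr1 and Mid1 values was not tested beyond the covariate fits.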

How the data were processed

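Gene expression was measured in whole brains, whose cerebellar marker signals differed widely, on 18 Affymetrix mouse arrays. Per the labels' protocols, RNA was taken from frozen tissue with Trizol and RNeasy columns. The deposited table gives linear intensities per probe set. The submitters' processing notes list MAS5, whose version is not given in the sources used here. Each array had a 2% trimmed mean of 500. Detection calls were not used, and precision is limited by how few arrays there are.

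Without 64 control probe sets, 34945 of the other 45037 had 1 gene symbol, 932 several and 9160 none. Symbols were updated through RefSeq (GRCm38.p6), and as the platform annotation names no genome build, that table gave only names and gene order. Signals were transformed as log2(signal + 63.63), the 25th percentile of all values. The 27022 probe sets at or above the 40th percentile of mean level entered a limma fit (limma 3.58.1, R 4.3.3) of 6 group means with an intensity trend, with Benjamini-Hochberg adjustment of p-values. Genotype contrasts averaged the female and male differences. Dim Erdr1 and Mid1 probe sets were taken from a fit without the filter, adjusted over 45037. Correlations within a genotype were tested by exact permutation over all pairings.

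Erdr1, Mid1, the gene lists and the tests were chosen with earlier results of these data known. Every Erdr1 and Mid1 probe set is named. Of each list, the rule names members past the threshold (at most 4 per comparison by smallest p) or, where none passed, the 2 brightest. The 6 most like and 4 most opposite genes are named, or the 4 most like for deviations from group means. The fit was tested on simulated data. Alternatives were other pseudocounts, quantile normalization, other filters, 1 probe set per gene, no intensity trend, fewer arrays, a replicate block, covariates and each array left out in turn. Sample numbers showed no clear pairing. Deviations of same-sex, same-number arrays of different genotypes correlated at -0.39 to 0.38, with a median of 0.064, over 0.1 in 6 of 18 pairs. For same-sex arrays of other numbers the range was -0.44 to 0.33 and the median -0.034, over 0.1 in 9 of 36 pairs. This check cannot exclude a pairing. The plots used matplotlib 3.10.9 under Python 3.11.15.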

Additional observations from a re-analysis of the deposited data

Results flagged for a closer look

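ERbetaKO male 3 stood apart on the dim Erdr1 probe set 1447790_at, with a signal of 188.1, while the other 5 ERbetaKO arrays spanned 51.7 to 87.1. The gap to the next array took a share of 0.657 of the group's log2 range by Dixon's test. The same array had the highest Erdr1 signal of its genotype on the bright probe set, 702, and the lowest Mid1 signal, 108. Without it, the ERbetaKO difference from wild type on 1447790_at was -0.035, against 0.11 with it. In all, 15 sets of 6 arrays were examined in this way, of which 1 stood out, and chance gives about 1 in 20.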

How the results depend on the processing

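Across 38 results and 1038 alternative values, 932 counted as unchanged. For tests this means the same direction and side of the threshold, and for counts of probe sets a number near that of the main fit. For the ERalphaKO differences of Erdr1 and Mid1, which carry no test, it means the same direction and a shift smaller than the SD between arrays. The ERalphaKO difference was 3.38 for Erdr1 with the pseudocount at the median, and 3.62 to 3.92 with 1 array left out. Mid1 was at 1.66 with the pseudocount at the median and 2.71 with a pseudocount of 1, and ran between 2.04 and 2.55 with 1 array left out. The Erdr1 difference in ERbetaKO, 0.53, passed with the replicate block (adjusted p = 0.0467) and, at 0.63, with the cerebellar covariate, and ran between 0.41 and 0.60 with 1 array left out, passing once. The replicate block, whose numbers showed no clear pairing of the samples, changed no other call on Erdr1 or Mid1. For the sexes it used the number alone, an alternative chosen after seeing the data. The female minus male value of Erdr1 was 0.012 with quantile normalization, 0.042 with the Actb covariate and -0.11 to 0.085 with 1 array left out. For Mid1 it ran between 0.15 and 0.49. The Erdr1 interaction ran between -0.25 and 0.34 and that of Mid1 between 0.27 and 1.29. The correlation of the bright Erdr1 and Mid1 probe sets in ERalphaKO ran between 0.53 and 0.93 with 1 array left out. With a dim probe set in place of 1 of them it was 0.45, 0.44 or 0.26.

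Counts of probe sets past the threshold in ERbetaKO were 980 with 1 probe set per gene (fewer tested), 1276 with only the genotypes compared and 345 with the Actb covariate, against 2113, and 1047 to 2238 with 1 array left out. In ERalphaKO they were 876 with 1 probe set per gene, against 2450, and 1432 to 2935 with 1 array left out. Between the sexes they were 6 with a pseudocount of 1, 3 with a filter at the 60th percentile and 4 with 1 probe set per gene, against 10, and 10 to 19 with 1 array left out. The split in ERbetaKO was 1143 higher and 970 lower, but 877 and 1015 with quantile normalization and 381 and 599 with 1 probe set per gene. In ERalphaKO it was 1480 and 970, but 401 and 475 with 1 probe set per gene. The causes were not tested.

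The interaction of Erdr1 1447790_at was 0.050 with the pseudocount at the median, 0.024 with the cerebellar covariate and -0.30 to 0.21 with 1 array left out. Its ERbetaKO difference ran between -0.035 and 0.25 and its sex difference between -0.034 and 0.14. In ERalphaKO, Tmsb4x was at 0.11 with quantile normalization and Ptch1 at 0.013 with the Actb covariate. With 1 array left out, Ptch1 ran between -0.12 and 0.13 and Trim9 between -0.0059 and 0.11. Ppp2r1a lost its call in 15 of 29 alternatives, Tsc2 in 19 and Eif4ebp2 in 17, while Tsc1, Ftx, Irak1 and Eif2s3x kept theirs in all alternatives run. No detection calls were used, so the 3 dim probe sets set no firm limit on Erdr1 or Mid1.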
